A study of Mus musculus and Homo sapiens with 12 samples.

Results

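H3K18bu and H4K12bu, the butyryl marks of lysine 18 of histone H3 and lysine 12 of histone H4, were compared in the large intestine of mice through 4 lists of CUT&Tag peaks, 2 per mark, out of 12 samples in the series. The 4 were chosen by their labels alone, which give the same tissue and the same diet for both marks. All came from male CETP-ApoB-100 transgenic mice, which carry human lipoprotein genes, on a high fat, high sucrose diet with 5% arabinoxylan, a cereal fiber that gut bacteria ferment. Both marks carry that transgene and that diet, and no butyryl library from a diet without arabinoxylan was analysed here, so no value below is an effect of the fiber. The labels give tissue from 2 mice per condition and no age, and do not say whether the replicates with the same number came from the same mouse. The tissue label names epithelium, while the study homogenized frozen pieces of large intestine and took nuclei from them. The 4 acetyl lists of the same tissue (H3K18ac and H4K12ac, 2 each) carry a diet label without arabinoxylan and serve below only as a second pair of marks on the same residues.

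Butyrate, made by gut bacteria from fiber, is the main fuel of colonocytes and an inhibitor of histone deacetylases, and its activated form, butyryl-CoA, can be used to butyrylate lysines that are otherwise acetylated. Acylation neutralizes the charge of the lysine and is typical of active chromatin. Lysine 18 lies on the tail of H3 and is a classic substrate of p300 and CBP, the acetyltransferases of enhancers and promoters. Lysine 12 lies on the tail of H4 and is acetylated on newly made histones as well as at active genes. CUT&Tag reads such a mark by bringing a transposase to it with an antibody, so that the DNA beside the mark is tagged for sequencing.

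Rows that overlapped within a list were merged into regions. This gave 60776 and 50645 regions for the H3K18bu replicates and 50909 and 96332 for the H4K12bu replicates. H4K12bu replicate 2 therefore stood apart, with more regions than any of the others. The lists are thin: solved from the authors' fold and −log10 p, the pileup, which is the number of extended read ends over the summit, was 1 in 89.9%, 90.6%, 91.4% and 89.2% of the rows in that order. The highest pileup was 31, 28, 25 and 27. Only 1176, 744, 816 and 2246 regions reached a −log10 q of 1.3, a q of about 0.05. A row of pileup 1 carries a counting error as large as its value, and the read totals of the libraries were not given in the files.

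The tissue label was checked against marker genes. Of 12 markers of colon epithelium, 11, 11, 10 and 11 had at least 1 region within the gene and 1 kb around it in H3K18bu replicates 1 and 2 and H4K12bu replicates 1 and 2. Cdx1, a transcription factor of the intestinal lining, had 6, 10, 7 and 10 regions, and Cdh1, which encodes E-cadherin, had 10, 15, 8 and 9. Per 100 kb of gene and per 10000 regions of a list, the epithelial markers held 1.60, 2.05, 1.44 and 1.28 regions. The 6 smooth muscle markers held 0.380, 0.114, 0.568 and 0.480, the 6 immune markers 0.604, 0.725, 0.288 and 0.419, and the 5 markers of enteric neurons and glia 0.417, 0.333, 0.249 and 0.394. The 6 genes of other organs held 0.203, 0.486, 0 and 0.639. The epithelial value was the highest of the 5 in every list, and the defining markers Cd3e, Sox10 and Tagln had no region in any list. Other markers of these cell types did have regions, with 2, 0, 5 and 2 for Myh11 of smooth muscle, 0, 3, 0 and 5 for Ptprc and 7, 3, 4 and 5 for Ikzf1 of immune cells, and 3, 2, 3 and 6 for Ret of enteric neurons. Cells other than epithelium were present in such tissue by its anatomy, and their part in the results was not tested.

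The 2 replicates of a mark shared few regions. Both H3K18bu replicates had a row at 8319 regions, which took up 14.0% and 16.8% of the regions of the single lists. Both H4K12bu replicates had a row at 9920 regions, which took up 20.0% and 10.6%. These regions, called both-replicate regions below, covered 2.53 Mb for H3K18bu and 3.22 Mb for H4K12bu. Replicates of 1 mark were only a little closer to each other than lists of different marks. The Jaccard index, the shared length over the joint length, was 0.0640 for the H3K18bu replicates, 0.0574 for the H4K12bu replicates and between 0.0517 and 0.0551 for the 4 pairs of different marks.

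The promoters of 5 genes show the patterns that the rest of the report turns on. Each is the RefSeq window of GRCm38.p6, the build of the files (mm10), from 250 bases before to 50 bases after an annotated start, read 5′ to 3′ on the strand of the gene, with every CG dinucleotide in capitals. Gpa33 (chr1:166129971-166130270, plus strand) and Ctsc (chr7:88277835-88278134, plus strand) had regions of all 4 lists at the start. Zxdc (chr6:90369244-90369543, plus strand) had H3K18bu and no H4K12bu there. Zfp738 (chr13:67683463-67683762, minus strand) and Trappc6b (chr12:59061423-59061722, minus strand) had H4K12bu and no H3K18bu.
Gpa33: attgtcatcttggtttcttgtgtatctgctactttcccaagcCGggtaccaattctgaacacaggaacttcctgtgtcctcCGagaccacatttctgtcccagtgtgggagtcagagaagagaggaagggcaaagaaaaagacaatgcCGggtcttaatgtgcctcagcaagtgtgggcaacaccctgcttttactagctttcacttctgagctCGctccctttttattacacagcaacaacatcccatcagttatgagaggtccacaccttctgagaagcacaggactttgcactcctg
Ctsc: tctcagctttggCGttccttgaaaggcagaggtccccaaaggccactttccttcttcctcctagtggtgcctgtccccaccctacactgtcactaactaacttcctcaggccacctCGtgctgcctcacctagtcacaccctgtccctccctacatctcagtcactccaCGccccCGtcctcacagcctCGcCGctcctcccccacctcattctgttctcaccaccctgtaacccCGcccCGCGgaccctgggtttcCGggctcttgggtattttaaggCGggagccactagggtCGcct
Zxdc: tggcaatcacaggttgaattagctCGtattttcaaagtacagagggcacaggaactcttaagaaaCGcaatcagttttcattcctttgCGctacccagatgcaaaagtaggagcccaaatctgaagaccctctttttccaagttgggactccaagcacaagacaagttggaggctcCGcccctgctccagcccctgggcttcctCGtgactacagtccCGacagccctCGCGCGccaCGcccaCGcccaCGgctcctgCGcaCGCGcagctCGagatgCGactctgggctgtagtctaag
Zfp738: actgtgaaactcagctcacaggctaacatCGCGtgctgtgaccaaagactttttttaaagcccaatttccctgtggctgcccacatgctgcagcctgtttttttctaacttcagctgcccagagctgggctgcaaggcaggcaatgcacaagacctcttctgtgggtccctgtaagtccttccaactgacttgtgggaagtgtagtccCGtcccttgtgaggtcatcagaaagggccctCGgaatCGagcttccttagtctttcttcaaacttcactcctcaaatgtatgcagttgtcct
Trappc6b: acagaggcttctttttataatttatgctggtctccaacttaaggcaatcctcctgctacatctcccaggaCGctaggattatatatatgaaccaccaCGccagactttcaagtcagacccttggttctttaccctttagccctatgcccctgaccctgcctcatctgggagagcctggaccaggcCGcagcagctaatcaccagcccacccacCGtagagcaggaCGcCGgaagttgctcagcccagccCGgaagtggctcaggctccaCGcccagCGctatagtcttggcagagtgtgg

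These windows hold 4, 12, 17, 5 and 9 CG dinucleotides in the order printed. The strongest H4K12bu-only window, that of Zfp738, was thus poor in CG, and so was that of Gpa33 with all 4 lists. Pxylp1, a phosphatase gene that ranked ahead of Zxdc for H3K18bu, is not printed because its H3K18bu regions lay at the outer end of the gene and none of their bases fell in the promoter window, while a region of H4K12bu replicate 2 covered 147 of its bases.

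H4K12bu regions lay at gene ends more often than H3K18bu regions did. Of all regions of a list, 16.6% and 17.1% lay within 1 kb of either end of a gene for H3K18bu, and 20.7% and 19.9% for H4K12bu. The mean was 16.8% ± 0.352 (SD, n = 2) for H3K18bu and 20.3% ± 0.577 (SD, n = 2) for H4K12bu, a difference of 3.50 percentage points. The marks did not overlap, and the two-sided exact permutation test gave p = 0.333, the smallest p that 2 lists against 2 allow. Outside genes the order was the other way, with 31.1% and 31.0% for H3K18bu and 28.2% and 27.2% for H4K12bu (difference −3.40 points, exact permutation p = 0.333). Elsewhere in gene bodies the marks overlapped, with 52.3% and 51.9% for H3K18bu and 51.1% and 52.9% for H4K12bu (difference −0.09 points, exact permutation p = 1). Equal numbers of strongest regions were then taken by −log10 p, with ties broken at random. Most still had a pileup of 1, at 88.0% and 90.7% for H3K18bu and 91.4% and 82.0% for H4K12bu, so the sets are not matched for signal. With the 50645 strongest regions of every list, H4K12bu had 20.7% and 16.9% at gene ends beside 16.3% and 17.1% in H3K18bu, so that the marks overlapped. Outside genes they overlapped as well, with 28.2% and 33.2% beside 32.2% and 31.0% (difference −0.934 points, exact permutation p = 1).

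The difference between the marks stood mainly in the regions of higher pileup. Among regions with a pileup of 2 or more, 22.4% and 23.0% of H3K18bu and 40.8% and 40.7% of H4K12bu lay at gene ends. The means were 22.7% ± 0.436 (SD, n = 2) and 40.7% ± 0.0569 (SD, n = 2), without overlap of the marks (exact permutation p = 0.333). When the same number, 4365, of the strongest of these regions was taken from every list, the shares were 23.0% and 23.1% against 40.8% and 43.6%. Among regions with a pileup of 5 or more, 17.1% and 14.5% of H3K18bu and 47.4% and 63.1% of H4K12bu lay at gene ends. The number of such regions was 205, 131, 135 and 431. In gene bodies, where all regions together had overlapped, the marks stood apart at a pileup of 2 or more, with 48.9% and 48.3% of H3K18bu against 40.1% and 42.4% of H4K12bu (difference −7.31 points, exact permutation p = 0.333). The gene-end share of H4K12bu was thus higher in regions of higher pileup, while that of H3K18bu stayed between 14.5% and 23.0% at every pileup shown. For H4K12bu replicate 2 the share among its 50645 strongest regions was lower than among all its regions, at 16.9% against 19.9%.

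**Figure D1:**
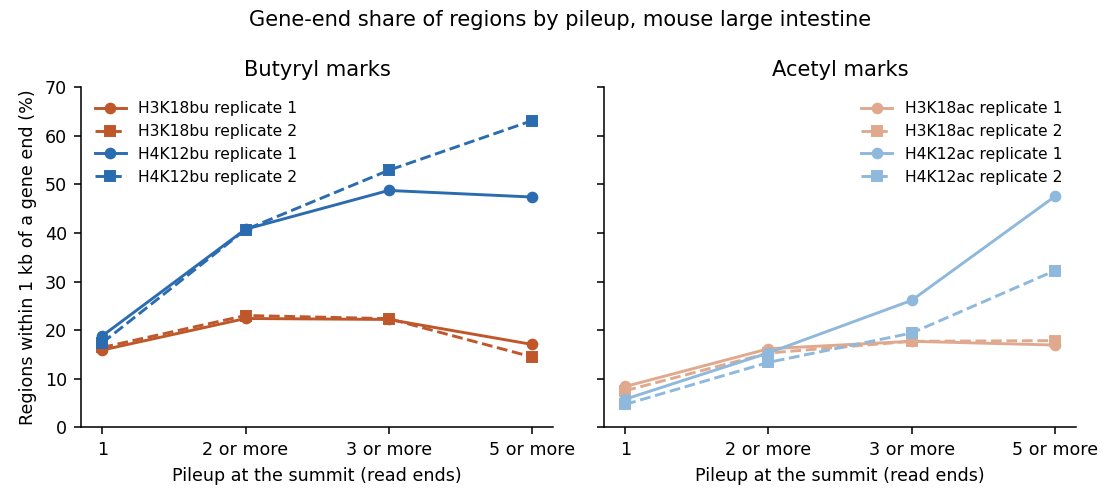
Share of merged regions within 1 kb of a gene end (y axis, percent) by the pileup at the summit in read ends (x axis) for the 4 butyryl lists (left) and the 4 acetyl lists (right), with 1 line per list. H4K12bu reached 47.4% and 63.1% at a pileup of 5 or more and H3K18bu 17.1% and 14.5%.

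The acetyl lists of the same residues were set beside them. Of all regions, 10.5% and 11.2% of H3K18ac and 10.3% and 12.2% of H4K12ac lay at gene ends, a difference of 0.371 points between the residues. The residue difference was 3.12 points larger for Kbu than for Kac, with an exact permutation p of 0.222 over the 36 assignments of residue labels, where the smallest p possible is 0.0556, so that this test could not pass 0.05. At a pileup of 2 or more, the residue difference was 19.4 points larger for Kbu than for Kac, in which it was −1.39 points (exact permutation p = 0.111). At a pileup of 5 or more, it was 39.5 points for Kbu and 22.5 points for Kac (exact permutation p = 0.5). The strongest H4K12ac regions, at 47.5% and 32.2%, thus also lay at gene ends more often than those of H3K18ac, at 16.9% and 17.8%. The acetyl lists stop at the authors' limit on the number of peaks and carry another diet label, so acyl group, depth and diet cannot be told apart in these differences.

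Among both-replicate regions, 23.4% of the 8319 for H3K18bu and 40.3% of the 9920 for H4K12bu lay at gene ends. In numbers, these were 1945 and 3994 regions. Gene bodies held 48.2% and 41.4%, and 28.4% and 18.3% lay outside genes. Where both replicates had a pileup of 2 or more, the gene-end share was 23.5% of 1224 regions for H3K18bu and 54.6% of 1651 for H4K12bu. These are single values per mark with no replicate of their own, and no test was made.

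Strand was known for 27025 of the 49943 genes through the RefSeq promoter table, which allowed starts to be told from ends. Within 1 kb of a start lay 9.65% and 10.3% of the regions of H3K18bu and 13.2% and 12.4% of those of H4K12bu. Another 2.87% and 2.76% of H3K18bu and 3.04% and 3.22% of H4K12bu lay within 1 kb of a 3′ end and not of a start. Among both-replicate regions, 16.2% of H3K18bu and 30.7% of H4K12bu were at starts, and 2.43% and 2.72% at 3′ ends only. The gap between the marks at gene ends was therefore mainly one of starts, as far as strand was known, and the shares at 3′ ends did not overlap between the marks either. Within 250 bases of a start lay 9.62% of the H3K18bu and 19.2% of the H4K12bu both-replicate regions. The median distance of a both-replicate region from the nearest start was 15.5 kb for H3K18bu and 8.01 kb for H4K12bu.

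**Figure D2:**
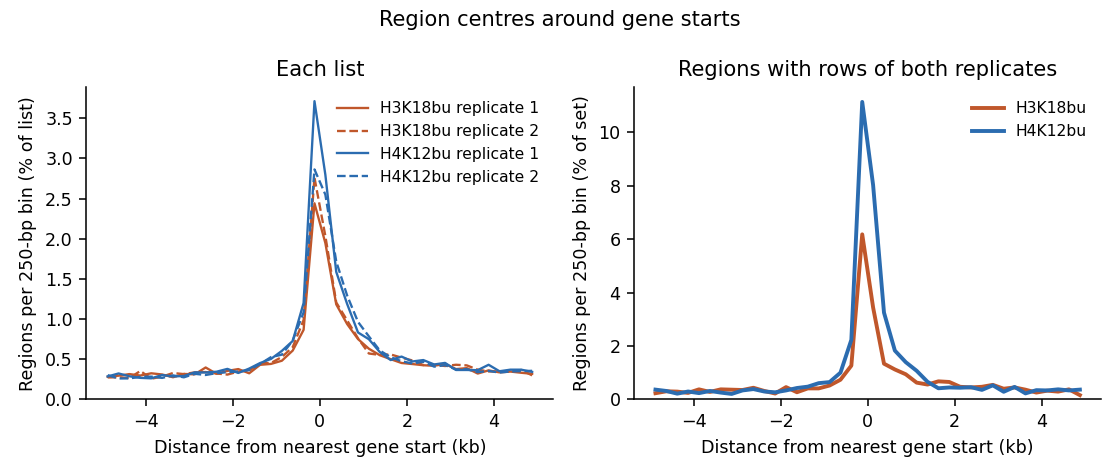
Region centres around the nearest gene start with known strand (x axis, kb, negative values before the start) as the percent of regions in each 250-bp bin (y axis), for each list (left) and for regions with rows of both replicates (right). The curves of both marks peak at the start, and within 250 bases of it lay 9.62% of the H3K18bu and 19.2% of the H4K12bu both-replicate regions.

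Fewer than 50% of the both-replicate regions of either mark were without a row of the other. Of the 8319 H3K18bu regions, 2104, or 25.3%, overlapped a both-replicate region of H4K12bu, another 34.8% overlapped rows of H4K12bu that did not form one, and 3318, or 39.9%, met no H4K12bu row. Of the 9920 H4K12bu regions, 2110, or 21.3%, overlapped a both-replicate region of H3K18bu, 32.2% overlapped other H3K18bu rows, and 4615, or 46.5%, met none. These shares depend on the rows that enter: at a −log10 q of 1.3 the both-replicate overlap was 16.8% for H3K18bu and 10.2% for H4K12bu, and with 1 library left out it ranged from 6.85% to 48.6% and from 4.48% to 39.8%. The regions without a row of the other mark were the weaker ones: 94.8% of them for H3K18bu and 91.8% for H4K12bu had a pileup of 1 in at least 1 replicate. With a lower pileup of 1, 44.3% of H3K18bu regions met no H4K12bu row, and with 5 or more it was 1 of 43. For H4K12bu, 51.3% of those with a lower pileup of 1 met no H3K18bu row, and 10 of 54, or 18.5%, of those with 5 or more. Presence in only 1 mark was therefore rare among the strongest H3K18bu regions and less so among the strongest H4K12bu regions. The lists to be met differ in size, since those of H4K12bu cover 8.96 and 18.5 Mb and those of H3K18bu 11.2 and 9.15 Mb. List size and mark cannot be told apart in this contrast.

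Shared and single-mark regions lay at different places. At gene ends lay 35.8% of the H3K18bu regions shared with H4K12bu and 15.2% of those without an H4K12bu row. For H4K12bu the shares were 35.9% of the shared and 40.0% of the single-mark regions. Outside genes lay 33.3% of the single-mark H3K18bu regions and 17.1% of those of H4K12bu. A row of the acetyl mark of the same residue overlapped 92.0% of the shared and 61.3% of the single-mark H3K18bu regions. For H4K12bu these shares were 83.4% and 59.5%. The acetyl mark of the other residue was met by 83.1% and 49.1% for H3K18bu and by 92.0% and 58.1% for H4K12bu, so the match was not particular to the same residue.

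**Figure D3:**
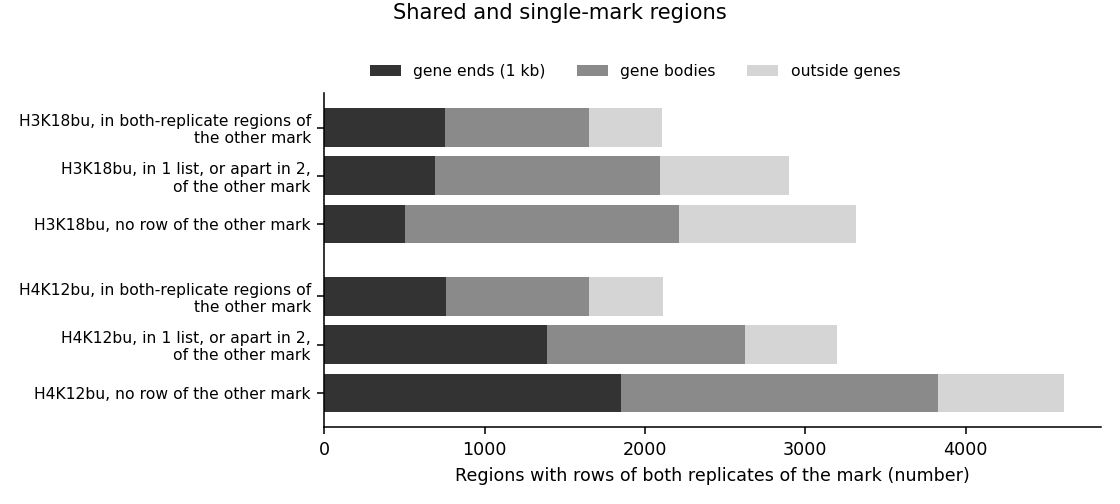
Number of both-replicate regions (x axis) of each mark that lay in both-replicate regions of the other mark, met other rows of it, or met none, divided by place in the genome (shades of grey). The 4615 H4K12bu regions without an H3K18bu row were at gene ends in 40.0% of cases, and the 3318 H3K18bu regions without an H4K12bu row in 15.2%.

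A row of all 4 lists was found at 2093 regions, of which 36.2% lay at gene ends, 42.1% in gene bodies and 21.7% outside genes. The region with the highest −log10 p in all 4 lists, inside Sfi1 (chr11:3135419-3135861), had pileups of 31, 28, 25 and 27. It had rows in all 4 acetyl lists too, as had 43.7% of the 2093 regions. Another region inside Sfi1 (chr11:3142267-3142931) had pileups of 8, 9, 6 and 9 and rows in all 4 acetyl lists. Whether reads were placed correctly at such regions was not tested, so their high pileups need not reflect the marks. Among named protein-coding genes with a region of all 4 lists at an end, the first by the lowest −log10 p of the 4 was Gpa33, which encodes an antigen of the surface of intestinal epithelium. H3K18bu reached pileups of 5 and 5 there and H4K12bu 6 and 15, and the region of H3K18bu replicate 1 (chr1:166130199-166130764) covers the annotated start. Ctsc, which encodes the lysosomal protease cathepsin C, followed with 4, 6, 6 and 6. Its regions lay over the printed promoter, of which they covered 266, 266, 284 and 300 bases.

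The next genes of that order were Mkks and Slx4ip, which share 1 region between their starts, with pileups of 4, 3, 4 and 6. Mkks encodes a chaperonin-like protein of cilia. Acadm, the medium-chain acyl-CoA dehydrogenase of fatty acid oxidation, had pileups of 3, 3, 3 and 6 at the start (chr3:153944231-153944771 in H3K18bu replicate 1). Capn2, a calpain protease, had 3, 3, 3 and 3. Pdlim5, a PDZ and LIM domain scaffold, had 3, 4, 4 and 5, and Anapc4, a subunit of the anaphase-promoting complex, had 3, 2, 4 and 4. H4K12bu replicate 2, the longest list, was the highest of the 4 at Gpa33, Mkks and Slx4ip, Acadm and Pdlim5.

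H4K12bu was found at more genes than H3K18bu. Of 49943 genes taken with 1 kb on either side, 4551 had a both-replicate region of H3K18bu, 7191 one of H4K12bu and 2721 both. At gene ends alone, the numbers were 2202, 4657 and 1081. Of the 21887 protein-coding genes, 1497, or 6.84%, had H3K18bu and 3582, or 16.4%, had H4K12bu in both replicates at an end. A both-replicate region of H3K18bu and no row of H4K12bu was seen at 142 genes, or 0.284% of all genes, and the reverse at 915 genes, or 1.83%. At gene ends alone, 206 genes, or 0.412%, had H3K18bu only and 1301, or 2.60%, had H4K12bu only. H4K12bu replicate 2, the longest list, bears on both counts. With the same number of strongest regions in each list, 238 genes had H3K18bu only and 587 had H4K12bu only. Without H3K18bu replicate 2 the order turned, with 2087 genes for H3K18bu only and 1626 for H4K12bu only, where H3K18bu stands on its single list.

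The genes of the 2 groups differed in kind. Of the 142 genes with H3K18bu only, 46, or 32.4%, were protein-coding and 54.2% were lncRNA genes. Of the 915 with H4K12bu only, 658, or 71.9%, were protein-coding and 16.7% were lncRNA genes. Among all genes, 43.8% are protein-coding and 25.5% lncRNA genes. At gene ends alone, 51.0% of the 206 genes with H3K18bu only were protein-coding and 38.8% were lncRNA genes, so that the protein-coding share then lay above that of all genes. The median length was 7.33 kb with H3K18bu only, 10.6 kb with H4K12bu only, 37.2 kb for the 2721 genes with both marks and 5.96 kb for all genes. Asking for no row of the other mark within the gene selects against long genes by construction.

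The strongest genes with H4K12bu only had regions of high pileup at the start. Zfp738, a zinc finger gene on chromosome 13, had no H3K18bu row and pileups of 10 and 13 in H4K12bu. The region of replicate 2 ran over chr13:67683063-67683773 and covered all 300 bases of the printed promoter. Trappc6b, a subunit of the TRAPP complex of vesicle transport, had 6 and 8. Zscan12, a zinc finger gene of the SCAN family, had 5 and 12 (chr13:21362702-21362936 in replicate 2). Ccdc90b, which encodes a mitochondrial coiled-coil protein, had 7 and 5.

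The same order went on with Zfp712 at pileups of 5 and 5, Zfp874b at 5 and 7, Dnajc19, a part of the mitochondrial protein import motor, at 4 and 5, and Cenpw, a protein of the centromere, at 4 and 4. The H4K12bu regions of Zfp874b lay inside the gene, with 0 at its ends in both replicates. H3K18bu had 0 rows within all 8 genes and 1 kb around them. Of the 8, 4 are zinc finger genes on chromosome 13, and Zfp738, Zfp712 and Zfp874b are neighbours in a cluster of similar genes, where short reads can be placed on more than 1 copy. Their values may be uncertain for that reason, and the placement of reads among copies was not tested.

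The first 8 genes with H3K18bu only had far weaker regions, but they came from 46 protein-coding genes, against 658 for H4K12bu. Jkamp, which encodes a membrane protein of the endoplasmic reticulum, came first with pileups of 2 and 2 and 0 rows of H4K12bu. Agxt, an aminotransferase of peroxisomes, had 1 and 2. Adh6a, an alcohol dehydrogenase, had 1 and 1, as had Bloc1s4, Btbd10, Cldn34c1, Clec12b and Clec9a. The last pair are neighbouring, overlapping C-type lectin genes. Of these 8 genes, 7 have a lower pileup of 1 and are tied in −log10 p as well, so that they were taken in the order of their symbols and not by strength.

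At gene ends, without regard to rows inside the gene, the strongest H3K18bu genes were Ces2b, Pxylp1, Zxdc and Relb. Relb, a subunit of NF-kappa-B, had pileups of 2 and 2 at its end and none in H4K12bu, which had 2 and 5 regions elsewhere in that gene. Zxdc, a zinc finger gene, had 2 and 2 over the printed promoter. Pxylp1 had 2 and 3. At Ces2b, a carboxylesterase gene, the merged region of the replicates reached within 1 kb of the gene but only the row of replicate 1 did so itself, with a pileup of 3.

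Of the 10 strongest H3K18bu regions with no H4K12bu row, 1 lay at a gene end, against 7 of 10 for H4K12bu. They are described here after their values were seen. The first lay inside Plcb4, a phospholipase C gene (chr2:135988520-135988879), with pileups of 6 and 8. Others lay inside Slc16a7, a monocarboxylate transporter (chr10:125362968-125363253), with 4 and 3, inside Slc26a3, the chloride and bicarbonate exchanger of colonocytes (chr12:31458480-31458905), with 4 and 3, and inside Dab2, an endocytic adaptor (chr15:6371447-6371769), with 4 and 3. For H4K12bu, the first such regions were those of Zfp738 and Trappc6b.

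The study names 5 genes from differential binding of each butyryl mark against acetyl marks. They are Fgf14, Akap9 and Cyria for H3K18bu and Fgfrl1 and Cldn3 for H4K12bu. The values here set the 2 butyryl marks side by side, which is another comparison. The 5 genes had pileups of at most 4. Fgf14, a fibroblast growth factor homologous factor, had 3, 0, 4 and 5 regions, all of pileup 1. Akap9, a scaffold for protein kinase A, had 10, 12, 16 and 21 regions with highest pileups of 4, 3, 3 and 2. Cyria, a regulator of Rac and actin, had 11, 14, 5 and 21 regions with highest pileups of 2, 1, 1 and 2. Fgfrl1, a receptor-like protein that binds fibroblast growth factors, had highest pileups of 1 and 1 in H3K18bu and 3 and 2 in H4K12bu. Cldn3, a claudin of tight junctions, had 1 and 1 against 3 and 3. For Fgfrl1 and Cldn3 the H4K12bu pileups lay above those of H3K18bu. Per 10000 regions, Akap9 held 1.65 and 2.37 in H3K18bu and 3.14 and 2.18 in H4K12bu, and Cyria 1.81 and 2.76 against 0.982 and 2.18, so that the marks overlapped at both.

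Gene functions were compared through 42 lists of genes. The measure is the number of regions within the genes of a list and 1 kb around them, per 10000 regions of the library. For 17 lists both H4K12bu values lay above both H3K18bu values, for 10 it was the reverse, and for 15 the marks overlapped. The median over the lists of the log2 ratio of H4K12bu to H3K18bu was 0.09. All protein-coding genes together held 6163 and 6163 regions per 10000 in H3K18bu and 6714 and 6815 in H4K12bu, so that a list of protein-coding genes starts from a small lead for H4K12bu.

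**Figure D4:**
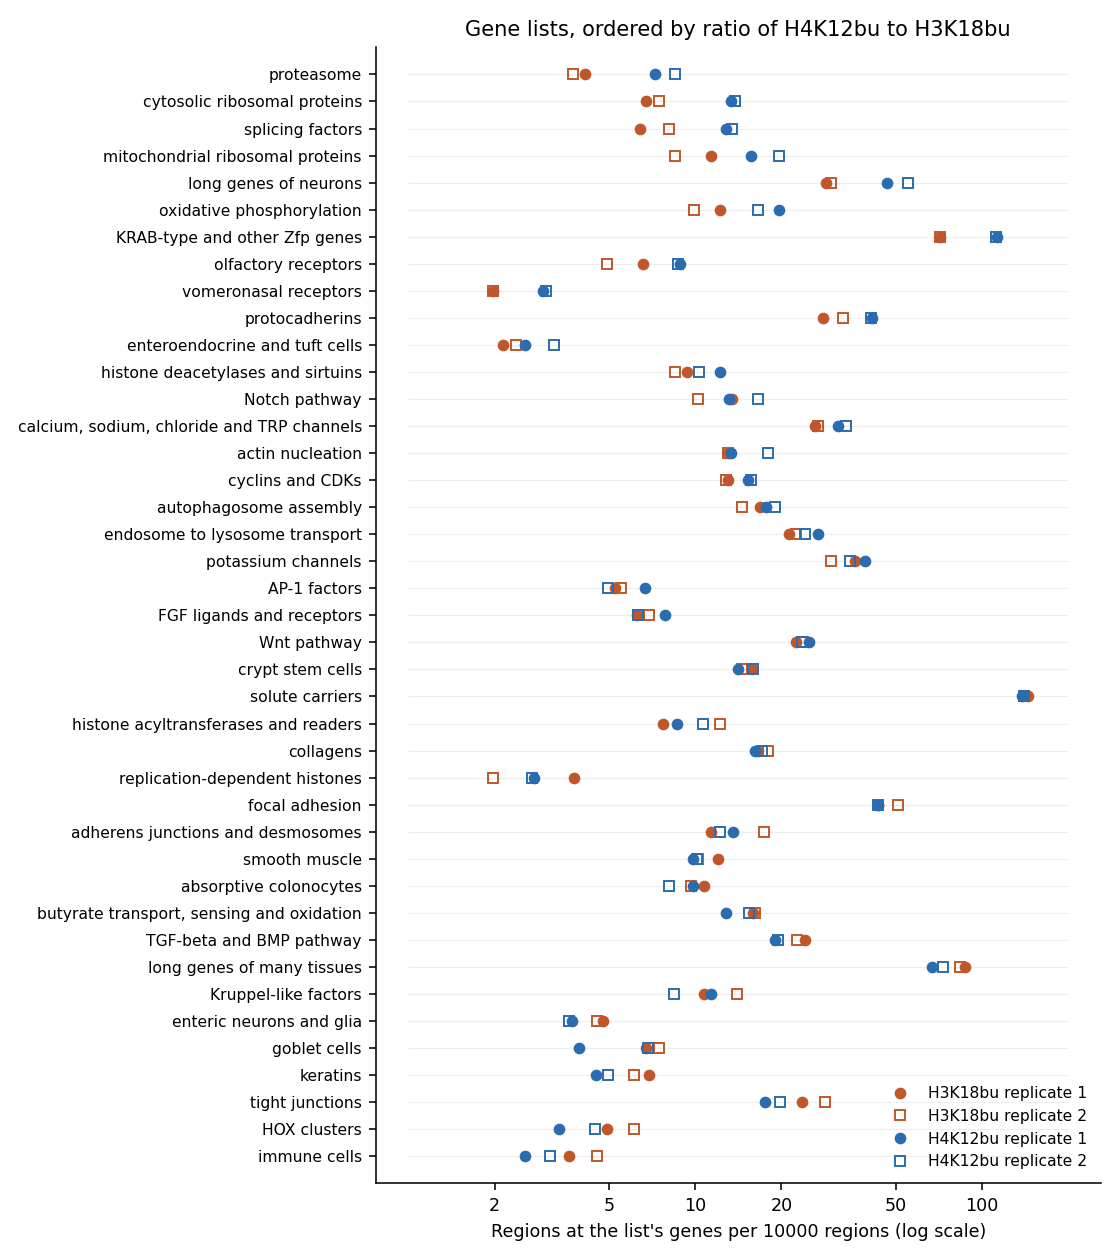
Regions within the genes of each list shown and 1 kb around them, per 10000 regions of the library (x axis, log scale), with 1 point per library and the lists ordered by the ratio of the mark means. Proteasome, ribosomal protein, splicing factor and zinc finger genes lie at the H4K12bu end, and immune, HOX, tight junction and keratin genes at the H3K18bu end.

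Genes that every cell uses leaned to H4K12bu. The 83 cytosolic ribosomal protein genes held 6.75 and 7.50 regions per 10000 in H3K18bu and 13.4 and 13.8 in H4K12bu. The 49 proteasome genes held 4.11 and 3.75 against 7.27 and 8.51, and the 65 genes of splicing factors 6.42 and 8.10 against 12.8 and 13.5. The genes of the energy-producing organelle went the same way. The 78 mitochondrial ribosomal protein genes held 11.4 and 8.49 against 15.7 and 19.6, and the 86 genes of oxidative phosphorylation 12.2 and 9.87 against 19.6 and 16.5.

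At the ends of these genes, 6 cytosolic ribosomal protein genes had H3K18bu and 22 had H4K12bu in both replicates. For mitochondrial ribosomal proteins the numbers were 6 and 25, for oxidative phosphorylation 8 and 36, for the proteasome 1 and 10, and for splicing factors 3 and 17. As shares, H4K12bu took 26.5%, 32.1%, 41.9%, 20.4% and 26.2% of these lists, against 16.4% of all protein-coding genes. H3K18bu took 7.23%, 7.69%, 9.30%, 2.04% and 4.62%, against 6.84%. H4K12bu thus lay above its background in each of the 5 lists, but for the proteasome, at 20.4% against 16.4%, it was near it. H3K18bu lay between 2.04% and 9.30%, around its own background, and no test was made.

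Uqcrc2, a core protein of respiratory complex III, had end pileups of 1 and 1 in H3K18bu and 8 and 6 in H4K12bu. Atp5e, a subunit of ATP synthase, had 2 and 4 against 3 and 6, where the marks overlapped. Ndufs6, of complex I, had 2 and 2 against 5 and 4. Mrpl36, of the large mitochondrial ribosomal subunit, lies directly beside Ndufs6 and had the same 2 and 2 against 5 and 4. The same regions may therefore count for both genes. Mrps35, of the small subunit, had 3, 1, 1 and 4, where they overlapped again. The marks also overlapped or were tied at Rpl18 with 2, 2, 2 and 3 and Rpl7 with 1, 1, 1 and 3. Psmb2, a beta subunit of the proteasome, had 1, 2, 1 and 3, and Psmb1, another subunit, 1, 0, 2 and 4. Sf3b6, of the U2 snRNP, had 1, 1, 2 and 2, and Hnrnpk, an RNA-binding protein, 1, 2, 1 and 1.

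Zinc finger genes lay on the H4K12bu side too. The 394 genes named Zfp, many of them KRAB repressors of transposable elements, held 71.6 and 71.5 regions per 10000 in H3K18bu and 113 and 112 in H4K12bu. At gene ends, 32 of them, or 8.12%, had H3K18bu in both replicates and 141, or 35.8%, had H4K12bu. The backgrounds were 6.84% and 16.4%. At their ends, 0 of the 394 had H3K18bu only, where 0.480% of all protein-coding genes did, and 54 had H4K12bu only, where 4.66% did. Zfp53 had end pileups of 1 and 1 against 11 and 16, Zfp87 1 and 1 against 4 and 11, Zfp983 3 and 1 against 3 and 11, and Zfp975 4 and 1 against 3 and 10. Many of these genes are close copies of each other in clusters, so a read may have been counted at a copy.

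Trafficking and cell cycle genes lay on the same side with a smaller gap, which for autophagosome assembly and for cyclins and CDKs ended in overlap per 10000 gene-end regions. The 54 genes of endosome to lysosome transport held 21.2 and 22.5 against 26.9 and 24.1, and 2 of them, or 3.70%, had H3K18bu and 15, or 27.8%, had H4K12bu in both replicates at an end, against 6.84% and 16.4% of all protein-coding genes. The 36 genes of autophagosome assembly had H3K18bu in 3 genes, or 8.33%, and H4K12bu in 12, or 33.3%, at an end in both replicates. Atg10, an enzyme of the autophagy conjugation system, had end pileups of 1, 4, 2 and 7, and Rb1cc1, a scaffold of the kinase complex that starts autophagy, had 3, 2, 3 and 4. The 38 cyclins and CDKs held 13.0 and 12.8 against 15.3 and 15.7. Ccng1, cyclin G1, had end pileups of 1 and 2 against 5 and 5, and Cdk13, a kinase of RNA polymerase II, 2 and 2 against 3 and 4.

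Very long genes of neurons, protocadherins and the receptors of smell also counted more H4K12bu regions. The 25 long genes of neurons held 28.6 and 29.8 regions per 10000 in H3K18bu and 46.6 and 55.4 in H4K12bu. At an end in both replicates, 0 and 1 of them, or 0% and 4%, were marked, against 6.84% and 16.4% of all protein-coding genes. Protocadherin genes held 28.0 and 32.8 against 41.3 and 40.9, and since many of the 69 overlap in clusters, 1 region can count for several. Olfactory receptors held 6.58 and 4.94 against 8.84 and 8.72 over 1106 genes. At gene ends, the long genes of neurons held 0.329 and 0.395 regions per 10000 against 0.982 and 0.830, so that most of their regions lay inside the genes. Their pileups were low where looked at, with end pileups of 1, 0, 2 and 2 for Dlg2 and 0, 1, 0 and 1 for Ctnna3. These counts thus rest on weak rows spread over long genes.

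Tight junction genes and, further on, those of the TGF-beta and BMP pathway lay on the H3K18bu side. The 37 tight junction genes held 23.5 and 28.4 regions per 10000 in H3K18bu and 17.5 and 19.7 in H4K12bu. At their ends, 4 had H3K18bu, or 10.8% against 6.84% of all protein-coding genes, and 6 had H4K12bu, or 16.2% against 16.4%, in both replicates. Counted at gene ends, the marks overlapped, at 2.80 and 3.95 against 2.36 and 3.84 regions per 10000. Patj, a scaffold of the Crumbs polarity complex, had 6, 14, 6 and 15 regions. Cldn23 had end pileups of 3 and 2 against 1 and 2, while Cldn3, above, went the other way.

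The 35 genes of the TGF-beta and BMP pathway held 24.2 and 22.7 against 19.1 and 19.5. At their ends, 6, or 17.1%, had H3K18bu and 3, or 8.57%, had H4K12bu in both replicates, against 6.84% and 16.4% of all protein-coding genes. Ski, a repressor of SMAD signalling, had 15, 11, 6 and 12 regions, and Tgif1, a homeodomain repressor, had 7, 6, 6 and 6. The 49 keratin genes held 6.91 and 6.12 against 4.52 and 4.98, with 4 genes, or 8.16%, marked by H3K18bu and 0 by H4K12bu at an end in both replicates. Krt8, a keratin of simple epithelia, had end pileups of 3 and 2 against 1 and 1. Krt78, directly beside it, had the same values, and the same regions may count for both genes. The 25 long genes of many tissues held 87.4 and 84.1 against 67.2 and 73.2. At gene ends they turned to the H4K12bu side, at 2.304 and 2.17 against 2.75 and 2.595, with 2 genes, or 8%, and 6 genes, or 24%, marked in both replicates.

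Genes of butyrate transport, sensing and oxidation held 16.0 and 16.2 regions per 10000 in H3K18bu and 12.8 and 15.4 in H4K12bu over 33 genes. Each mark was found at the ends of 8 of them, or 24.2%, in both replicates, and 6 genes had both marks there. Of all protein-coding genes, 6.84% had H3K18bu, 16.4% had H4K12bu and 3.57% had both at an end in both replicates. Etfa, Etfb and Etfdh, which carry electrons from acyl-CoA dehydrogenases to the respiratory chain, had regions of all 4 lists at an end, as had Acadm. The end pileups of Etfb were 2 and 2 against 3 and 6. Histone deacetylases and sirtuins held 9.38 and 8.49 against 12.2 and 10.3. Counted at gene ends, the marks overlapped, at 1.32 and 2.96 against 3.34 and 2.28, as they did per 10000 gene-end regions. Hdac2 had end pileups of 2, 1, 2 and 4 and Hdac11 of 1, 2, 2 and 2.

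Lists of other cell types were small and gave few regions. The 24 immune genes held 3.62 and 4.54 against 2.55 and 3.11, with 0 and 1 genes marked at an end in both replicates, where 6.84% and 16.4% of all protein-coding genes were. The 20 genes of enteric neurons and glia held 4.77 and 4.54 against 3.73 and 3.63, with none marked. Smooth muscle genes held 12.0 and 10.3 against 9.82 and 10.2, with 2 and 0. All 3 lists lay on the H3K18bu side, as did the tight junction list, while the 6 smooth muscle markers given at the start were higher per 100 kb in both H4K12bu libraries, and their part in the results was not tested. The marks overlapped for 2 lists of epithelial cell types, at 10.7 and 9.68 against 9.82 and 8.10 for absorptive colonocytes and 6.75 and 7.50 against 3.93 and 6.85 for goblet cells. The 12 epithelial markers given at the start were higher per 100 kb in both H3K18bu libraries, at 1.60 and 2.05 against 1.44 and 1.28.

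H4K12bu had the larger share of regions at gene ends, so the lists were also scaled to those. Per 10000 gene-end regions of a list, in place of all regions, 11 lists were higher in both H4K12bu libraries, 9 were higher in both H3K18bu libraries and 22 overlapped. Ribosomal, mitochondrial, proteasome, splicing and zinc finger genes were among the 11 on this scale, and keratin and TGF-beta and BMP genes among the 9. Of the 11, 9 were also higher in H4K12bu by all regions, while Wnt pathway and FGF genes had overlapped there. Actin nucleation genes turned from the H4K12bu side, at 13.0 and 13.0 against 13.4 and 17.96 per 10000 regions, to the H3K18bu side, at 22.8 and 22.0 against 15.2 and 18.3 per 10000 gene-end regions.

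Single genes were compared by their share of the regions of each list. Of 1207 genes with at least 30 regions over the 4 lists, 384, or 31.8%, had a higher share in both H3K18bu libraries, and 184, or 15.2%, in both H4K12bu libraries. Without any difference between the marks, 1 of the 6 assignments of the 4 lists already gives each of these orders. The H4K12bu count is thus no more than such an order gives by itself, and no test was made. The counting error of such numbers is wide, and the genes named here were chosen after their values were seen, from the 6 with the largest ratio on each side. The limit of 30 sums all 4 lists, so a gene can pass it mainly through the mark in which it is high. The large ratios of the named genes are therefore partly a result of this choice. Dhrs3, a retinal reductase, had 11 and 14 regions in H3K18bu and 1 and 10 in H4K12bu. Dapk2, a kinase of cell death and autophagy, had 26 and 20 against 3 and 17. Abhd17c, a depalmitoylase, had 16 and 9 against 3 and 8. Epas1, the hypoxia factor HIF-2 alpha, had 12 and 10 against 4 and 5.

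On the other side, Lsamp, a neuronal adhesion gene of 2197 kb, had 2 and 4 regions in H3K18bu and 15 and 27 in H4K12bu. Its highest pileup was 1 in each of the 4 lists. Wdfy3, a scaffold of selective autophagy, had 3 and 2 against 11 and 22. Csmd1, another long neuronal gene, had 8 and 2 against 17 and 43, with highest pileups of 1, 1, 1 and 2. Thsd7b had 2 and 3 against 8 and 24, and Sugct 3 and 2 against 7 and 19. Dmbt1, a mucin-like protein of gut epithelium, had 3 and 3 against 9 and 22. Among the lists, 5 of 6 tight junction genes and 10 of 25 solute carriers that reached 30 regions had a higher share in both H3K18bu libraries, and 0 in both H4K12bu libraries. Over all genes tested these shares were 31.8% and 15.2%, and the count for solute carriers is near the first. Of 19 long genes of neurons, 2 were higher in H3K18bu and 12 in H4K12bu.

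Gene length went with the marks. Among protein-coding genes of up to 4.17 kb, 3.02% had H3K18bu and 8.07% had H4K12bu in both replicates within the gene and 1 kb. Among those of 57.1 kb or more, 32.9% and 39.9% had them. The shares of the marks were thus further apart, in proportion, in short genes than in long ones. At gene ends alone, H3K18bu was at 2.83% of these short and 8.31% of these long genes and H4K12bu at 7.72% and 15.9%.

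The CG content of promoters set apart marked from unmarked starts, for both marks. Over 17492 protein-coding genes with a promoter window, the median was 13 CG dinucleotides in 300 bases. It was 21 at the 1135 starts with H3K18bu and 21 at the 2801 starts with H4K12bu in both replicates, and 4 at the 7706 starts without a row of any list. Starts with H3K18bu only had a median of 18 (95 genes) and those with H4K12bu only of 20 (881 genes). In windows with 0 to 4 CG, 2.04% of starts had H3K18bu and 2.33% had H4K12bu in both replicates. In windows with 20 or more, the shares were 9.84% and 25.3%. The marks were thus close at starts poor in CG and apart at starts rich in it.

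**Figure D5:**
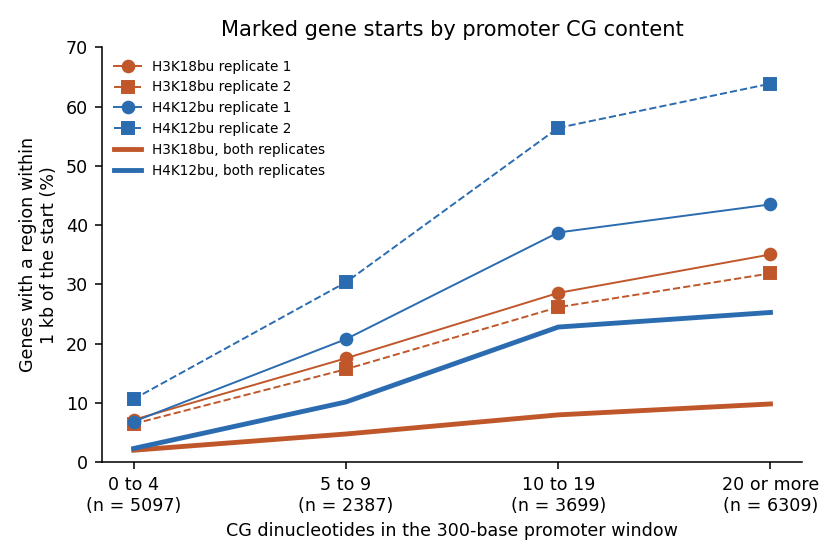
Percent of protein-coding genes with a region within 1 kb of the start (y axis) by the number of CG dinucleotides in the 300-base promoter window (x axis, with the number of genes), for each list (thin lines) and for both replicates (thick lines). Both-replicate H4K12bu went from 2.33% of starts in the lowest class to 25.3% in the highest, and H3K18bu from 2.04% to 9.84%.

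Sequence motifs were searched on both strands of the same windows and are matches of letters, not bound sites. The GC box (GGGCGG) was in 46.3% of all protein-coding promoters, 67.0% of those with H3K18bu and 65.7% of those with H4K12bu in both replicates. The ETS site (CCGGAAG) was in 11.9% of all, 16.5% with H3K18bu and 22.6% with H4K12bu, and the NRF1 site in 6.66%, 11.01% and 12.9%. The ETS site stands in the printed promoter of Trappc6b. The TATA box (TATAAA) was in 13.3% of all promoters, 5.81% with H3K18bu and 6.14% with H4K12bu, and the AP-1 site (TGANTCA) in 7.03%, 5.81% and 4.75%. The CRE (TGACGTCA) was in 2.33%, 3.17% and 4.96%, the E-box (CACGTG) in 7.91%, 9.34% and 10.4%, and the CCAAT box (CCAAT) in 39.2%, 39.0% and 39.6%. Motifs with CG are more frequent wherever CG is, and no test was made.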

How the data were processed

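CUT&Tag libraries were made from nuclei of frozen large intestine with antibodies to H3K18bu, H4K12bu, H3K18ac and H4K12ac, 2 libraries each. Per the labels and the submitters' processing notes, the authors used bcl2fastq 2.17.1, cutadapt 1.9.1, Bowtie2 2.3.1 and MACS2 2.1.0, and mouse reads were placed on mm10. The deposited lists hold 1 row per peak with a fold over background, a −log10 p and a −log10 q as MACS2 gave them for each library. No read counts and no control lists were used here. The paper states an approximate average of uniquely mapped reads per sample, and read totals of the single libraries are not given in the sources used here. 

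The fold, written by the authors as a ratio of pileup plus 1 to background plus 1, and the deposited −log10 p were solved together for a whole-number pileup, which succeeded for 100% of rows and for 100% of simulated peaks. Rows that overlapped within a list were merged. Regions were placed against 49943 RefSeq genes of GRCm38.p6 as within 1 kb of a gene end, elsewhere in a body or outside, with an overlap of at least 1 base. The marks were compared over libraries with two-sided exact permutation tests (6 assignments, smallest p = 0.333). Nothing says that the 2 samples of a mark come from separate mice beyond the design text, so p-values measure the spread between these samples, which may be technical. Python 3.11.15, numpy 2.4.6, pandas 2.3.3, scipy 1.17.1 and bedtools 2.31.1 were used.

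Genes named are protein-coding with a symbol that is not a predicted one. They are the 8 per mark with that mark in both replicates and no row of the other, by the lower pileup, the 8 with all 4 lists at an end, the 4 per mark with the strongest end region and no row of the other mark at the ends, 5 that the study names, and, for many of the lists described but not all, up to 4 members from those with the most libraries at an end. Genes and regions named otherwise were chosen after their values were seen. The members, gene lists and tests were chosen with earlier results of these data known. Alternatives were rows by q, by pileup and by equal number, other windows, genes and overlaps, covered length in place of number, a replicate block, and each library left out. 1 of the 42 gene lists is counted in the totals but is not reported here by itself.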

Additional observations from a re-analysis of the deposited data

How the results depend on the processing

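The gene-end difference between the marks stayed above 0 and the difference outside genes below 0 under all 14 alternatives tried for each, but with equal numbers of strongest regions they shrank to 2.105 (exact permutation p = 0.667) and −0.934 points (exact p = 1) and the marks overlapped. Leaving out 1 library in turn gave 3.09 to 3.90 points at gene ends and −3.90 to −2.91 points outside genes. With the same-numbered libraries paired (a replicate block), the gene-end difference was 3.50 points, from 4.15 and 2.84 in the pairs (exact sign-flip permutation p = 0.5, the smallest possible), that in gene bodies −0.09 and that outside genes −3.40. Nothing says that the numbers mark shared mice. The difference in gene bodies, −0.09 points with overlap, was −12.7 at a −log10 q of 1.3, −7.31 at a pileup of 2, −8.56 with equal numbers at that pileup and −1.17 with equal numbers of all regions, without overlap (exact permutation p = 0.333 each). It turned to 0.596 points with a 500 bp window and 1.16 with protein-coding genes only, and ranged from −0.994 to 0.808 with 1 library left out (0.0955 without H3K18bu replicate 1, 0.808 without H4K12bu replicate 1). The residue difference of Kbu against Kac ranged from 2.14 to 4.11 points with 1 library left out, and was 1.77 with equal numbers (exact permutation p = 0.667), 29.6 at a −log10 q of 1.3, 19.4 at a pileup of 2, 5.10 by covered length and 4.89 without the tied lowest Kac rows. The gene-end gap of both-replicate regions, 16.9 points, was 48.4 at a −log10 q of 1.3, 31.1 at a pileup of 2, 19.3 with equal numbers and 20.0 by covered length.

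The share of H3K18bu regions shared with H4K12bu, 25.3%, was 16.8% at a −log10 q of 1.3, 23.4% at a pileup of 2, 18.5% with equal numbers, 22.4% with an overlap of at least 50% of the shorter region and 28.5% by length. For H4K12bu, 21.3% became 10.2%, 17.4%, 22.9%, 18.7% and 24.0%. Genes with H3K18bu only, 142, were 47 at that q, 238 with equal numbers and 46 when protein-coding only, and genes with H4K12bu only, 915, were 244 at that q and 587 with equal numbers. With 1 library left out, a mark is represented by its single list, so these values ranged over 6.85% to 48.6%, 4.48% to 39.8%, 257 to 2087 and 1626 to 6164 (2087 against 1626, the order turned, without H3K18bu replicate 2, and 6164 without H4K12bu replicate 1). The lists higher in H4K12bu, 17, were 8 at that q and 11 per 10000 gene-end regions, and those higher in H3K18bu, 10, were 4 with gene-end regions only. Except for these, the cause of which was not tested, the lists and counts stayed within 1.5 times. The alternatives for both-replicate regions and for lists, and the equal number at a pileup of 2, were chosen after seeing the data. Depth limits all of this, since about 9 in 10 rows rest on a pileup of 1.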

Other observations

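Other gene lists gave smaller or mixed values, in regions per 10000 of a library. The 70 calcium, sodium, chloride and TRP channels held 26.2 and 26.9 in H3K18bu and 31.4 and 33.5 in H4K12bu, and the 353 vomeronasal receptors 1.97 and 1.97 against 2.95 and 3.01. The 20 genes of enteroendocrine and tuft cells held 2.14 and 2.37 against 2.55 and 3.22, with no gene marked in both replicates of either mark. Within the gene and 1 kb, 15.3% of all protein-coding genes had H3K18bu and 25.7% had H4K12bu in both replicates. The 39 HOX genes held 4.94 and 6.12 against 3.34 and 4.46. The marks overlapped for adherens junctions and desmosomes at 11.4 and 17.4 against 13.6 and 12.2, for crypt stem cells at 15.8 and 14.6 against 14.1 and 15.9, for solute carriers at 145 and 140 against 138 and 140, and for Notch pathway genes at 13.5 and 10.3 against 13.2 and 16.6. Wnt pathway genes overlapped over the whole gene, at 22.5 and 23.7 against 24.9 and 23.7, while at gene ends they held 2.96 and 3.36 against 5.70 and 4.88.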
